A study of Mus musculus with 12 samples.

Results

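Expression of 10 genes of the liver X receptor (LXR) pathway was followed in mouse macrophages that had been given an itaconate ester or heme, or that carried a knockout of the itaconate-making enzyme. The genes were chosen by name, with earlier results of these data known: Nr1h3, Nr1h2, Abca1, Abcg1, Apoe, Mylip, Srebf1, Scd1, Scd2 and Lpcat3. All 10 were listed in each of the 12 libraries, of 16145 genes listed in at least 1 library. The cells were bone marrow-derived macrophages (BMDMs), grown from marrow for 7 days with the growth factor M-CSF, and RNA was sequenced in 4 groups of 3 libraries. In wild-type (WT) cells, vehicle was given for 12 h, 4-octyl itaconate (4-OI, a cell-permeable ester of the metabolite itaconate) at 120 µM for 15 h, and hemin (oxidised heme) at 15 µM for 12 h. The fourth group, labelled Irg1KO, had vehicle for 12 h. Acod1, long called Irg1, encodes the enzyme that makes itaconate. 4-OI was thus given for longer than vehicle or hemin, and an effect of the compound cannot be told apart from an effect of the hours. The strain, age and allele of the mice are not given in the sources used here, nor is the origin of the replicates. A p-value here therefore speaks only of the spread among these libraries, which may be technical.

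Library totals ran from 9405112 to 22390882 expected counts. The 8 macrophage markers summed to between 23530 and 27190 CPM (counts scaled to a common library size) in all 12 libraries, a sum that hides unequal members. With 4-OI 2 of the 8 were higher and 3 lower, against 25.4% and 25% over all genes tested. Among the lower was Mrc1, a mannose receptor, at a mean of 484 CPM against 1496 with vehicle, a fall of 1.63 ± 0.05. With hemin 3 of the 8 were higher and 2 lower, against 9.48% and 7.74% over all genes. In the libraries labelled Irg1KO 2 were higher and 1 lower, against 23.5% and 16.3%. Acod1, the targeted gene, was at 27.7 ± 2.74 CPM (SD, n = 3) with wild-type vehicle and 20.5 ± 6.41 in the libraries labelled Irg1KO, a difference that did not pass the test (edgeR adjusted p = 0.1937), so its gene-level count did not separate the genotypes. The deleted part of the gene is not given in the sources used here. Stromal markers summed to 10370 to 11640 CPM in the libraries labelled Irg1KO, against 1559 to 2137 CPM in the other 9 libraries. As these are bulk samples, more cells of a type and more RNA per cell cannot be told apart.

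LXRα, encoded by Nr1h3, and LXRβ, encoded by Nr1h2, are nuclear receptors that bind oxysterols and act as pairs with retinoid X receptors. When a macrophage takes up more cholesterol than it needs, LXRs induce the exporters Abca1 and Abcg1 and the carrier protein Apoe, and they limit further uptake through Mylip, a ubiquitin ligase that marks lipoprotein receptors for breakdown. They also induce Srebf1, which encodes the lipogenic factor SREBP1, the fatty acid desaturases Scd1 and Scd2, and Lpcat3, which places polyunsaturated fatty acids in phospholipids. LXR-RXR pairs classically bind a direct repeat of 2 AGGTCA half-sites separated by 4 bases, called DR4.

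The promoters of the genes are shown first because 2 of them, Abca1 and Srebf1, hold nearly the same DR4-like site and their RNA changed in opposite directions with 4-OI. RefSeq promoter windows (GRCm38.p6, from 250 bases before to 50 after the start) matched 7 of the 10 genes, with 12 windows; Abcg1, Scd1 and Scd2 had no entry. With at most 2 mismatches over the 12 fixed bases, on both strands, DR4 was in no window of the 10 genes and in 3.02% of all 32851 windows. With 3 mismatches it was in 2 of the 12 windows, those of Abca1 and Srebf1, and in 21.9% of all windows. That count is no higher than the background. Both sites read on the strand opposite to the gene and begin with GGGTTACT. The Abca1 site, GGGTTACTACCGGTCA, covers bases -67 to -52 from the start, and the Srebf1 site, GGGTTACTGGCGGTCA, covers bases -182 to -167 of 1 of its 3 windows. The 2 sites are equal at 14 of 16 bases. The letters they share, GGGTTACTNNCGGTCA, were searched for after the matches had been seen and were in 3 of the 32851 windows (0.00913%), those of Abca1, Srebf1 and Fasn. Fasn, which encodes fatty acid synthase, holds the same 16 letters as Abca1, at bases -225 to -210. Because the shared letters came from the Abca1 and Srebf1 sites, the matches in these 2 genes were fixed in advance. A match is a description of letters and says nothing of binding in these cells. The stretches follow, 5′ to 3′ along the gene, all on the minus strand of GRCm38.p6. They are the last 200 bases before the start for Abca1 (chr4:53159896-53160095) and Srebf1 (chr11:60210472-60210671), and 81 bases around the site for Fasn (chr11:120824717-120824797). Capitals mark the DR4-like site as read along the gene and, in Abca1, also an E-box, CACGTG.
Abca1: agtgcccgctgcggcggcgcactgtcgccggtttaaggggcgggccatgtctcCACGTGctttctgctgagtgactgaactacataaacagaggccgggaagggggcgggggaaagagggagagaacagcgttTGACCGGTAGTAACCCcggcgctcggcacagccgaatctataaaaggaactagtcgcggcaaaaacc
Srebf1: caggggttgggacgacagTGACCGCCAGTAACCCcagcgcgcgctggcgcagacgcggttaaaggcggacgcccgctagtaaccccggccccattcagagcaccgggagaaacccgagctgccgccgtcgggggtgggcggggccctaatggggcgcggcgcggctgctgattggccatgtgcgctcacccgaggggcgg
Fasn: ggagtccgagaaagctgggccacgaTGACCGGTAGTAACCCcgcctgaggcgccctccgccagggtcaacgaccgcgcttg

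The E-box, CACGTG, was in Abca1 alone among the 7 genes with a window, without overlap with the DR4-like site, and in 7.15% of all windows. The sterol regulatory element TCACNCCAC, bound by SREBPs, was in none of the 12 windows and in 1.24% of all windows. The antioxidant response element TGACNNNGC, bound by NRF2, was in none of the 12 and in 12.4% of all windows. That these letters are missing from a 300-base window says nothing of more distant sites.

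Per unit of transcript length, Apoe stood far above the other 9 genes in every group. Its mean was 2145 FPKM (fragments scaled to transcript length and library size) with vehicle, where its mean rank among all genes was 10.7. The other 9 genes lay between 2.07 FPKM (Scd1) and 32.0 FPKM (Nr1h2) with vehicle. Below Apoe, the vehicle order was Nr1h2, Scd2 (27.2), Abca1 (21.3), Lpcat3 (16.5), Srebf1 (16.0), Mylip (9.69), Nr1h3 (7.89), Abcg1 (3.50) and Scd1. The libraries of Lpcat3 and Srebf1 overlapped, as did those of Mylip and Nr1h3; the other neighbours in this order did not overlap. In each of the other 3 groups Scd2 was in second place, at 102 FPKM with 4-OI, 57.2 in the libraries labelled Irg1KO and 49.7 with hemin. Abca1 stood next after Scd2 with hemin (33.8 FPKM), behind Nr1h2 in the libraries labelled Irg1KO (22.3) and behind Srebf1 with 4-OI (14.9). The lowest of the 10 was Nr1h3 with 4-OI, at 2.57 FPKM and overlapping Scd1 at 3.24, Scd1 with hemin, at 2.55, and Abcg1 in the libraries labelled Irg1KO, at 2.20.

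**Figure D1:**
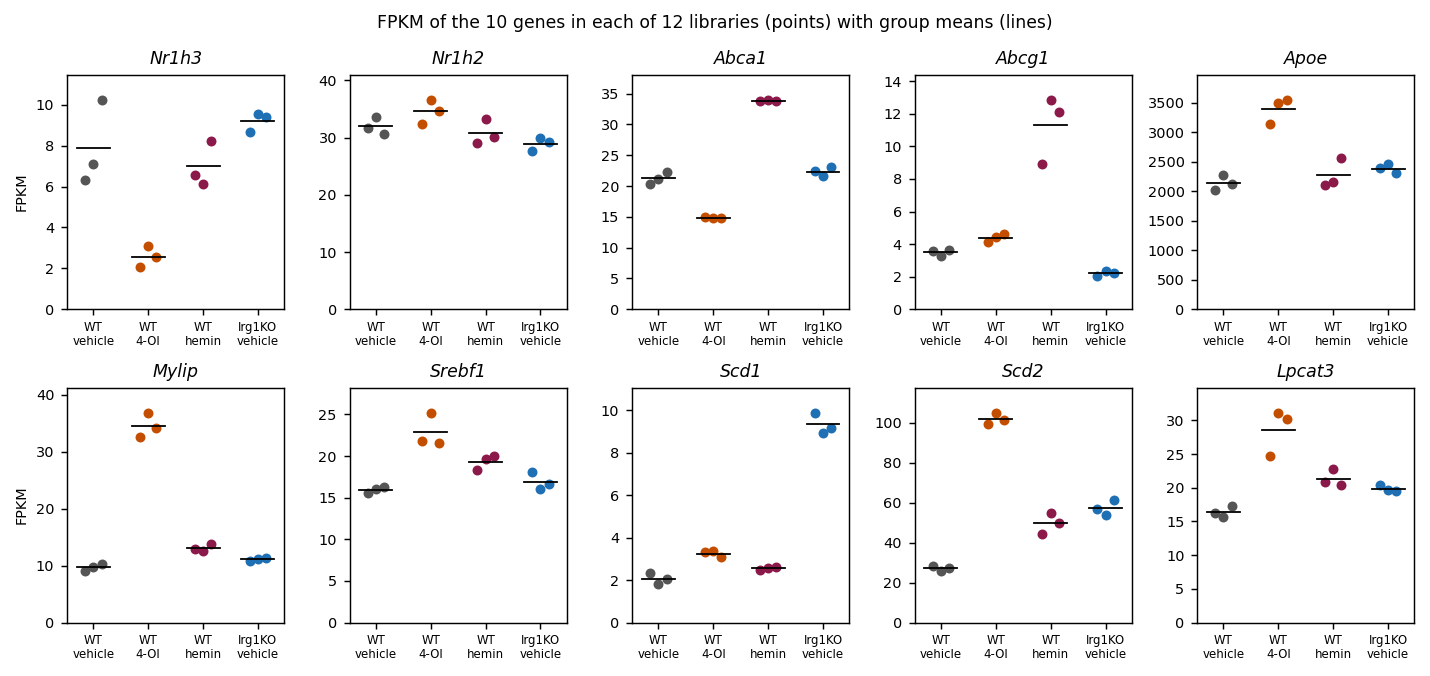
FPKM of each of the 10 genes (vertical axis, linear from 0, its own scale per gene) in the 12 libraries (points, coloured by group) with the group mean as a line. Mylip and Scd2 stand highest with 4-OI, Abca1 and Abcg1 with hemin and Scd1 in the libraries labelled Irg1KO, each without overlap with the other groups.

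Differences between groups were tested on expected counts with the edgeR quasi-likelihood test, and a gene is said to have risen or fallen at an adjusted p under 0.05 over 12148 genes tested. Levels in the following sentences are CPM after TMM scaling, given in the order of replicates, and changes are log2 fold changes ± SE.

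Of the 2 receptors, Nr1h3 moved with 4-OI and Nr1h2 stayed within a narrow range. Nr1h3 was at 10.6, 11.7 and 16.9 CPM with vehicle and at 3.68, 5.44 and 4.72 CPM with 4-OI. It was at 10.9, 10.4 and 14.3 CPM with hemin and at 14.5, 15.9 and 15.9 CPM in the libraries labelled Irg1KO. Every 4-OI library lay below every other library, and the third vehicle library was the highest of the 12. Nr1h3 fell by 1.45 ± 0.18 with 4-OI (adjusted p = 7.153e-07). With hemin the difference was -0.09 ± 0.15 (adjusted p = 0.7735), and in the libraries labelled Irg1KO it was 0.28 ± 0.14 (adjusted p = 0.1309), with overlap in both. Without the third vehicle library, the latter was 0.46 and passed the test (adjusted p = 0.003641). The Nr1h3 count was not whole in any of the 12 libraries, the gene overlaps Acp2, a lysosomal phosphatase, and the strand of the libraries is not given in the sources used here. Acp2 also fell by 0.48 ± 0.05 with 4-OI, from a mean of 270.6 to one of 193 CPM, and its part in the Nr1h3 result was not tested.

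Nr1h2 was at 58.7, 62.7 and 56.4 CPM with vehicle and at 66.3, 74.5 and 71.3 CPM with 4-OI. It was at 55.9, 64.1 and 58.5 CPM with hemin and at 52.2, 56.4 and 55.1 CPM in the libraries labelled Irg1KO. The 4-OI libraries were the highest of the 12, by a small margin. Nr1h2 rose with 4-OI by 0.25 ± 0.06 (adjusted p = 0.001054), a call that was lost on the FPKM scale (0.11, adjusted p = 0.1469 with 1 added). The difference was 0.0035 ± 0.06 with hemin (adjusted p = 0.98) and -0.12 ± 0.06 in the libraries labelled Irg1KO (adjusted p = 0.1165). As a share of the FPKM of both receptors, Nr1h3 made up 19.7 ± 4.67% with vehicle and 6.88 ± 0.875% with 4-OI (SD, n = 3).

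The exporters Abca1 and Abcg1 rose together with hemin and moved in opposite directions with 4-OI. Abca1, which loads cholesterol onto lipid-poor apolipoprotein, was at 201, 212 and 222 CPM with vehicle and at 164, 161 and 163 CPM with 4-OI. It was at 350.5, 354 and 352 CPM with hemin and at 228, 218 and 235 CPM in the libraries labelled Irg1KO. The hemin libraries lay above all others, the 4-OI libraries below all others, and the libraries of the 2 vehicle groups overlapped. Abca1 fell by 0.38 ± 0.05 with 4-OI (adjusted p = 1.754e-08) and rose with hemin by 0.74 ± 0.05 (adjusted p = 5.803e-15). In the libraries labelled Irg1KO the difference was 0.10 ± 0.05 (adjusted p = 0.08269).

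Abcg1, which passes cholesterol to high-density lipoprotein, was at 19.8, 18.5 and 20.3 CPM with vehicle and at 25.3, 27.1 and 28.7 CPM with 4-OI. It was at 52.1, 75.0 and 71.1 CPM with hemin and at 11.6, 13.3 and 12.7 CPM in the libraries labelled Irg1KO. No 2 of the 4 groups overlapped, and the first hemin library lay below the other 2. Abcg1 rose with hemin by 1.78 ± 0.10 (adjusted p = 6.778e-12), a 3.43-fold change, and with 4-OI by 0.47 ± 0.11 (adjusted p = 0.001045). It fell by 0.62 ± 0.12 in the libraries labelled Irg1KO (adjusted p = 0.0002097). On the FPKM scale with 1 added, its rise with 4-OI was 0.26 and still passed the test (adjusted p = 0.04402). Abcg1 made up 14.1 ± 0.733% of the FPKM of both exporters with vehicle, 22.8 ± 1.19% with 4-OI, 24.9 ± 3.51% with hemin and 8.98 ± 0.731% in the libraries labelled Irg1KO. The share was thus higher with either compound, while the level of Abca1 was lower with one and higher with the other.

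Apoe, the secreted lipid carrier, was at 2278, 2576 and 2367 CPM with vehicle and at 3899, 4316 and 4407 CPM with 4-OI. It was at 2460, 2506 and 3005 CPM with hemin and at 2721, 2805 and 2622 CPM in the libraries labelled Irg1KO. The 4-OI libraries stood apart, while the hemin libraries overlapped both vehicle groups. Apoe rose with 4-OI by 0.81 ± 0.07 (adjusted p = 6.906e-10). With hemin the difference was 0.14 ± 0.07 (adjusted p = 0.1596). In the libraries labelled Irg1KO it rose by 0.17 ± 0.07 (adjusted p = 0.04191), and this call was lost in 9 of 15 alternatives, with an adjusted p of up to 0.1774.

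**Figure D2:**
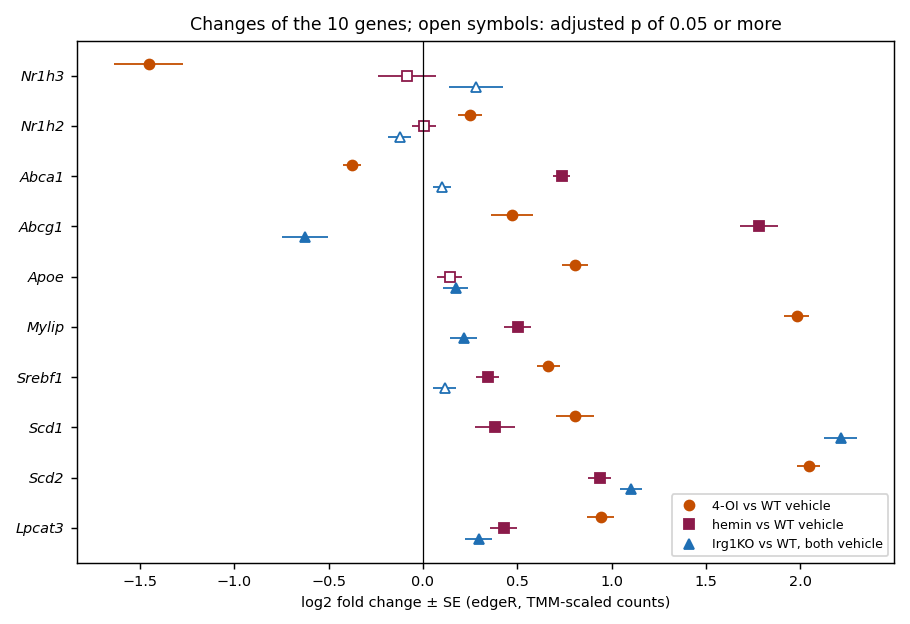
Log2 fold change ± SE (horizontal axis) of each of the 10 genes against wild-type vehicle for 4-OI (circles), hemin (squares) and the libraries labelled Irg1KO (triangles); filled symbols passed the test. Abca1 lies at -0.38 with 4-OI and 0.74 with hemin, while Scd2 lies above 0 in all 3 comparisons, at 2.04, 0.94 and 1.10.

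Mylip, the ligase that acts on lipoprotein receptors, rose in all 3 comparisons with wild-type vehicle. It was at 25.8, 28.2 and 29.3 CPM with vehicle and at 103, 116 and 108 CPM with 4-OI. It was at 38.7, 37.2 and 41.6 CPM with hemin and at 31.5, 32.1 and 32.9 CPM in the libraries labelled Irg1KO. The 4 groups did not overlap, and the 4-OI libraries stood well above the rest. Mylip rose with 4-OI by 1.98 ± 0.07 (adjusted p = 1.448e-24), a 3.95-fold change. The rise was 0.50 ± 0.07 with hemin (adjusted p = 1.553e-06) and 0.22 ± 0.07 in the libraries labelled Irg1KO (adjusted p = 0.0149). The last of these was lost with DESeq2 (adjusted p = 0.06705), without the third library labelled Irg1KO (0.0521) and without the first vehicle library (0.1086).

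Among the lipogenic genes, Scd2 rose in all 3 comparisons with wild-type vehicle and Scd1 rose most in the libraries labelled Irg1KO. Srebf1 was at 63.5, 66.5 and 66.9 CPM with vehicle and at 99.2, 114 and 98.3 CPM with 4-OI. It was at 78.5, 84.3 and 86.3 CPM with hemin and at 75.8, 67.3 and 70.2 CPM in the libraries labelled Irg1KO. The libraries of each compound lay above all vehicle libraries of the wild type, and those with 4-OI lay highest. Srebf1 rose by 0.67 ± 0.06 with 4-OI (adjusted p = 6.747e-12) and by 0.34 ± 0.06 with hemin (adjusted p = 6.488e-05). The difference in the libraries labelled Irg1KO was 0.11 ± 0.06 (adjusted p = 0.1382). Expected counts are per gene, so the SREBP1a and SREBP1c transcripts were not separated.

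Scd1, a desaturase that makes monounsaturated fatty acids and is best known from liver and fat, was at 10.6, 8.47 and 9.53 CPM with vehicle and at 16.8, 17.0 and 15.7 CPM with 4-OI. It was at 11.8, 12.5 and 12.7 CPM with hemin and at 46.4, 42.1 and 43.4 CPM in the libraries labelled Irg1KO. The latter stood apart from all others. Scd1 rose there by 2.21 ± 0.09 (adjusted p = 6.886e-22), a 4.64-fold change. It rose by 0.81 ± 0.10 with 4-OI (adjusted p = 1.402e-08) and by 0.38 ± 0.11 with hemin (adjusted p = 0.008726). The hemin call was lost on the FPKM scale with 1 added (0.21, adjusted p = 0.063) and without the second vehicle library (0.29, adjusted p = 0.09385). The 4-OI value was 0.47 on the FPKM scale with 1 added, where it kept the call (adjusted p = 8.342e-05).

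Scd2, the desaturase that macrophages express at the higher level here, was at 146, 137 and 143 CPM with vehicle and at 570, 600.0 and 585 CPM with 4-OI. It was at 242, 298 and 273 CPM with hemin and at 301, 286 and 327 CPM in the libraries labelled Irg1KO. Every library outside the vehicle group lay above every vehicle library of the wild type, and the hemin and Irg1KO libraries overlapped in level. Scd2 rose by 2.04 ± 0.06 with 4-OI (4.12-fold; adjusted p = 3.15e-22), by 0.94 ± 0.06 with hemin (adjusted p = 6.778e-13) and by 1.10 ± 0.06 in the libraries labelled Irg1KO (adjusted p = 1.249e-15). Its share of the FPKM of both desaturases was 93.0 ± 0.512% with vehicle, 96.9 ± 0.142% with 4-OI and 95.1 ± 0.366% with hemin, but 86.0 ± 0.928% in the libraries labelled Irg1KO. The 4 groups did not overlap in this share. Beside both desaturases in the libraries labelled Irg1KO stand the stromal markers: 8 of 8 tested of 10 listed were higher there, with a median of 2.50, while Dcn and Lum had at most 10 counts in every library. The adipocyte markers summed to at most 0.284 CPM in any library. The part of the stromal RNA in the Scd1 and Scd2 results was not tested.

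**Figure D3:**
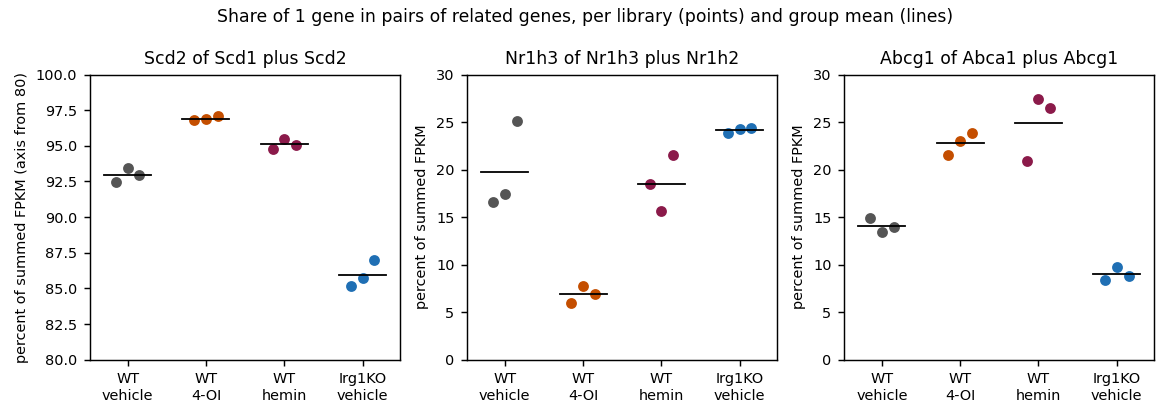
Percent of the summed FPKM of a gene pair (vertical axes; the first starts at 80%) taken by Scd2, Nr1h3 and Abcg1 in the 12 libraries (points) with group means (lines). Scd2 took 85.2 to 87.0% in the libraries labelled Irg1KO and at least 92.4% elsewhere, and Nr1h3 took 6.01 to 7.76% with 4-OI and at least 15.6% elsewhere.

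Lpcat3 was at 37.6, 36.6 and 40.1 CPM with vehicle and at 63.1, 78.4 and 77.1 CPM with 4-OI. It was at 49.5, 54.3 and 49.0 CPM with hemin and at 47.0, 46.3 and 46.3 CPM in the libraries labelled Irg1KO. No group overlapped another, and the order from lowest to highest was vehicle, Irg1KO, hemin, 4-OI. Lpcat3 rose by 0.94 ± 0.07 with 4-OI (adjusted p = 5.005e-14), by 0.43 ± 0.07 with hemin (adjusted p = 3.088e-05) and by 0.30 ± 0.07 in the libraries labelled Irg1KO (adjusted p = 0.001014).

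Counted over the 10 genes, 8 were higher with 4-OI than with vehicle (Mylip, Scd2, Lpcat3, Apoe, Scd1, Srebf1, Abcg1 and Nr1h2) and 2 were lower (Nr1h3 and Abca1). The median change of the 10 was 0.74, against -0.0031 over all 12148 genes tested. Of all genes tested, 50.4% passed, 25.4% higher and 25% lower. The count of higher genes therefore stands against a background of 25.4%, and the count of lower genes lies near its background. As the 10 genes were chosen with earlier results of these data known, these counts are a description and not a test. On the FPKM scale the median of all genes moved to -0.11 with 1 added, and the split of called genes went from 3083 higher and 3043 lower to 1743 higher and 4608 lower; 7 of the 10 genes were then called higher and 2 lower. Neutrophil markers summed to 338 to 361 CPM with 4-OI and to 83.8 to 94.4 CPM with vehicle, 2 of 5 tested being higher. Most of the sum was Mmp8, at a mean of 313 CPM with 4-OI and 79.5 with vehicle. The other higher marker was S100a8, while S100a9, Ngp and Ltf did not pass. Ly6g was listed in no library and Elane and Camp had at most 10 counts. Endothelial markers summed to 8.59 to 9.98 CPM with 4-OI and 34.3 to 39.2 CPM with vehicle, 2 of 4 tested being lower. Kdr alone was at a mean of 4.98 CPM with 4-OI and 28.6 with vehicle, while Pecam1 and Emcn did not pass. The part of either marker list in these results was not tested.

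With hemin, 7 of the 10 genes were higher than with vehicle (Abcg1, Scd2, Abca1, Mylip, Lpcat3, Scd1 and Srebf1) and none was lower. Of all genes tested, 17.2% passed, 9.48% higher and 7.74% lower. The median change of the 10 was 0.41, against -0.006 over all genes. The 3 that did not pass were both receptors and Apoe. Apoe passed without the first hemin library (0.20, adjusted p = 0.04414) and when low counts were not filtered (0.15, adjusted p = 0.02248). Endothelial markers summed to 16.4 to 17.9 CPM with hemin and to 34.3 to 39.2 CPM with vehicle, 1 of 4 tested being lower. That gene, Kdr, was at a mean of 11.1 CPM with hemin and 28.6 with vehicle. The part of the endothelial markers in these results was not tested. On the FPKM scale with 1 added, all called genes split into 621 higher and 1422 lower, against 1152 and 940 on counts.

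In the libraries labelled Irg1KO, 5 of the 10 genes were higher than in wild-type vehicle (Scd1, Scd2, Lpcat3, Mylip and Apoe) and 1, Abcg1, was lower. Of all genes tested, 39.8% passed, 23.5% higher and 16.3% lower. The median change of the 10 was 0.19, against -3e-04 over all genes. The rise of Apoe and that of Mylip were both at most 0.22 and were lost in alternatives given above, whereas Scd1, Scd2, Lpcat3 and Abcg1 passed in all 15. Both groups received vehicle for 12 h. The Acod1 count did not separate them, and the stromal sum did. Neutrophil markers summed to 41.6 to 45.7 CPM in the libraries labelled Irg1KO and to 83.8 to 94.4 CPM with wild-type vehicle. Of 5 tested, 3 were lower and 1 higher. Most of the sum was Mmp8, at a mean of 36.4 CPM against 79.5 with wild-type vehicle. The part of the neutrophil markers in these results was not tested.

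Set directly against each other, 4-OI and hemin differed in all 10 genes. 4-OI was higher for Mylip (1.48 ± 0.06), Scd2 (1.11 ± 0.06), Apoe (0.66 ± 0.07), Lpcat3 (0.51 ± 0.07), Scd1 (0.42 ± 0.10), Srebf1 (0.32 ± 0.06) and Nr1h2 (0.24 ± 0.06). Hemin was higher for Nr1h3, Abcg1 and Abca1, with 4-OI against hemin at -1.37 ± 0.19, -1.31 ± 0.10 and -1.11 ± 0.05. The adjusted p was lowest for Abca1, at 1.094e-20, and highest for Nr1h2, at 0.002064. The share of all genes tested without overlap between the 2 treatments was not computed, so overlap of the 10 genes is not counted here. Of all genes tested, 42.3% passed, 20.6% higher with 4-OI and 21.7% lower, and the median of the 10 was 0.37 against 0.0015 over all genes. The exporters were thus higher with hemin, and the other targets, lipogenic genes included, with 4-OI. On the FPKM scale with 1 added, the split of all called genes was 1726 higher and 3490 lower, against 2500 and 2636 on counts, and the 10 genes kept 7 higher and 3 lower.

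The partners of the receptors were called higher about as often as all genes with either compound, and none was called lower there. Of the 10 listed retinoid X receptors and coregulators 9 were tested, and 2 were higher with 4-OI, 1 was higher with hemin and 2 were lower in the libraries labelled Irg1KO; the list median was -0.02, -0.06 and -0.10. Over all genes, 25.4% were higher with 4-OI and 9.48% with hemin, and 16.3% were lower in the libraries labelled Irg1KO. Rxra, the main RXR of macrophages, was at 213 ± 3.71 CPM with vehicle, 208 ± 3.30 with 4-OI, 220.0 ± 8.64 with hemin and 199 ± 3.75 in the libraries labelled Irg1KO, and none of the 3 differences passed. Rxrb did not pass either, at -0.02 ± 0.07, -0.15 ± 0.07 and -0.11 ± 0.07. The corepressor Ncor1 was at -0.0069 ± 0.05, -0.06 ± 0.05 and -0.04 ± 0.05, without passing.

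Other LXR targets of macrophages were called in both directions with 4-OI and in the libraries labelled Irg1KO. Of 14 listed, 8 were tested: 4 were higher and 2 lower with 4-OI, 3 higher and none lower with hemin, and 2 higher and 4 lower in the libraries labelled Irg1KO; the list median was 0.33, 0.17 and -0.16. Against 25.4% higher and 25% lower over all genes with 4-OI, 9.48% and 7.74% with hemin, and 23.5% and 16.3% in the libraries labelled Irg1KO, the 2 lower with 4-OI and the 2 higher in the libraries labelled Irg1KO are at the background. Lpl, the lipoprotein lipase, was at 1357, 1338 and 1364 CPM with vehicle and at 3559, 4026 and 3606 CPM with 4-OI. It was at 2623, 2444 and 2725 CPM with hemin and at 779, 874 and 883 CPM in the libraries labelled Irg1KO. No group overlapped another: Lpl rose by 1.46 ± 0.05 with 4-OI and 0.94 ± 0.05 with hemin and fell by 0.68 ± 0.05 in the libraries labelled Irg1KO, the same 3 directions as Abcg1. Pltp, which transfers phospholipids between lipoproteins, rose by 0.79 ± 0.07, 0.31 ± 0.07 and 0.70 ± 0.07. Cd5l, a secreted macrophage protein, rose by 0.98 ± 0.10 with 4-OI and 1.07 ± 0.10 in the libraries labelled Irg1KO, and with hemin it was at 0.30 ± 0.11 (adjusted p = 0.05914). Mertk, a receptor for dying cells, did not pass in any of the 3, at 0.08 ± 0.05, 0.12 ± 0.05 and -0.10 ± 0.05.

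Among genes of intracellular cholesterol handling, Ch25h fell with 4-OI. Of 15 listed, 13 were tested: 6 were higher and 3 lower with 4-OI, 3 higher and 3 lower with hemin, and 2 higher and 6 lower in the libraries labelled Irg1KO; the list median was 0.07, -0.006 and -0.13. The shares over all genes were 25.4% higher and 25% lower with 4-OI, 9.48% and 7.74% with hemin, and 23.5% and 16.3% in the libraries labelled Irg1KO, and the 3 lower with 4-OI are near theirs. Ch25h, which makes the LXR ligand 25-hydroxycholesterol, was at 70.6, 64.5 and 65.1 CPM with vehicle and at 9.36, 6.71 and 7.19 CPM with 4-OI. It was at 56.7, 50.02 and 43.0 CPM with hemin and at 37.9, 40.6 and 35.4 CPM in the libraries labelled Irg1KO. All 3 groups lay below all vehicle libraries, and Ch25h fell by 3.10 ± 0.11, 0.43 ± 0.08 and 0.81 ± 0.08. Scarb1, a receptor that exchanges cholesterol with high-density lipoprotein, rose by 1.21 ± 0.05 with 4-OI, was at 0.10 ± 0.05 with hemin without passing, and fell by 0.17 ± 0.05 in the libraries labelled Irg1KO. Soat1, which esterifies cholesterol for storage, rose by 0.47 ± 0.05 with 4-OI and 0.14 ± 0.05 with hemin and fell by 0.13 ± 0.05 in the libraries labelled Irg1KO. Npc1, which exports cholesterol from lysosomes, rose with 4-OI by 0.31 ± 0.05, and its partner Npc2 rose in the libraries labelled Irg1KO by 0.20 ± 0.05; neither passed in the other 2 comparisons.

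**Figure D4:**
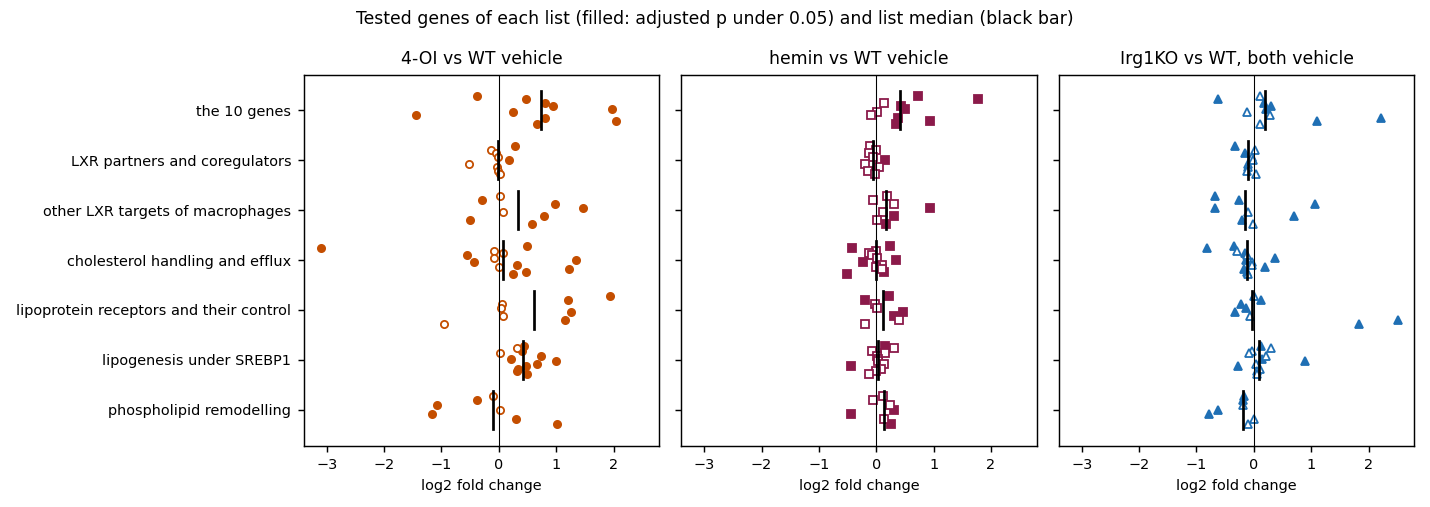
Log2 fold changes (horizontal axis) of every tested gene of the 10 and of 6 related lists in 3 comparisons with wild-type vehicle; filled points passed the test and black bars are list medians. Ch25h lies farthest left with 4-OI, at -3.10. In the lipogenic list, regulators included, 10 of 12 genes passed above 0 with 4-OI and 1 of 12 with hemin. Over all genes tested 25.4% and 9.48% did so.

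Of the lipoprotein receptors, Lrp8 rose with 4-OI, as Mylip did. Of 8 genes, all tested, 4 were higher with 4-OI and none lower, 3 were higher and 1 lower with hemin, and 3 were higher and 3 lower in the libraries labelled Irg1KO; the list median was 0.62, 0.12 and -0.04. These counts stand beside 25.4% higher and 25% lower over all genes with 4-OI, 9.48% and 7.74% with hemin, and 23.5% and 16.3% in the libraries labelled Irg1KO. Lrp8, a target of the Mylip protein, rose by 1.26 ± 0.05 with 4-OI and 0.46 ± 0.06 with hemin and fell by 0.32 ± 0.06 in the libraries labelled Irg1KO. Vldlr, also such a target, was at most at 1.06 CPM in all 9 wild-type libraries and between 1.88 and 3.69 CPM in the libraries labelled Irg1KO, where it rose by 1.84 ± 0.31. Lrp1, which Apoe binds, was at 0.03 ± 0.05 with 4-OI and 0.02 ± 0.05 with hemin without passing, and fell by 0.13 ± 0.05 in the libraries labelled Irg1KO.

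Most genes of the lipogenic list rose with 4-OI. Of 14 listed, 12 were tested: 10 were higher and none lower with 4-OI, 1 was higher and 1 lower with hemin, and 3 were higher and 1 lower in the libraries labelled Irg1KO; the list median was 0.43, 0.02 and 0.08. Over all genes tested 25.4% were higher with 4-OI, 9.48% with hemin and 23.5% in the libraries labelled Irg1KO, so the last 2 counts are near the background. Fasn, whose promoter holds the same 16 letters as that of Abca1, was at 208, 212 and 209.9 CPM with vehicle and at 315, 358 and 319 CPM with 4-OI. It was at 222, 242 and 227 CPM with hemin and at 214, 216 and 216 CPM in the libraries labelled Irg1KO. Fasn rose by 0.66 ± 0.05 with 4-OI, where Abca1 fell, and was at 0.14 ± 0.05 with hemin (adjusted p = 0.05549), where Abca1 rose; in the libraries labelled Irg1KO it was at 0.04 ± 0.05 without passing. Acaca, which makes malonyl-CoA, rose by 0.44 ± 0.05, 0.15 ± 0.05 and 0.13 ± 0.05. Acly, which makes cytosolic acetyl-CoA, rose with 4-OI by 0.41 ± 0.05, as did the elongase Elovl6, by 0.73 ± 0.10, and neither passed in the other 2 comparisons. The list also holds regulators of SREBP processing and the sterol factor Srebf2, which do not make fatty acids themselves. Named after their values were seen, Insig1, Insig2, Scap and Srebf2 rose with 4-OI by 0.47 ± 0.06, 0.33 ± 0.07, 0.32 ± 0.06 and 0.49 ± 0.05, and Insig1 fell by 0.44 ± 0.06 with hemin.

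Other enzymes of phospholipid remodelling moved in both directions with 4-OI. Of 8 listed, 7 were tested: 2 were higher and 3 lower with 4-OI, 2 higher and 1 lower with hemin, and 4 lower and none higher in the libraries labelled Irg1KO; the list median was -0.11, 0.13 and -0.18. The 2 higher with 4-OI are near the 25.4% over all genes tested, and the 3 lower stand beside 25%. With so few genes, neither count carries a result about the list. The shares over all genes were 9.48% higher and 7.74% lower with hemin, and 23.5% higher and 16.3% lower in the libraries labelled Irg1KO. Pla2g4a, a phospholipase that releases arachidonic acid, rose by 1.01 ± 0.05 with 4-OI and 0.25 ± 0.05 with hemin, and Mboat7 rose by 0.29 ± 0.07 with 4-OI, both named after their values were seen. Lpcat2, which makes phosphatidylcholine and the precursor of platelet-activating factor, fell by 1.08 ± 0.09 with 4-OI, was at 0.23 ± 0.08 with hemin and at -0.18 ± 0.08 in the libraries labelled Irg1KO, the last 2 without passing. Lpcat1 fell by 0.38 ± 0.06 with 4-OI and was lower, at -0.20 ± 0.06, in the libraries labelled Irg1KO, and was at -0.06 ± 0.06 with hemin without passing. Mboat1 fell by 1.16 ± 0.16, 0.44 ± 0.15 and 0.77 ± 0.15. Lpcat4 was at 0.02 ± 0.09 with 4-OI without passing, rose by 0.32 ± 0.09 with hemin and fell by 0.62 ± 0.09 in the libraries labelled Irg1KO.

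With 4-OI against hemin directly, 10 of the 12 genes tested of the lipogenic list, regulators included, were higher and none lower, and the list median was 0.40. Of the other lists, 7 of 13 genes of cholesterol handling were higher and 3 lower, 4 of 8 other LXR targets were higher and 2 lower, and 3 of 8 lipoprotein receptors were higher and 1 lower. Among the phospholipid enzymes 1 of 7 was higher and 5 were lower, and among the receptor partners 1 of 9 was higher and none lower. Over all genes tested 20.6% were higher and 21.7% lower, so the counts of lower genes of cholesterol handling and of other LXR targets are near the background. Of the genes of these lists named above, 4-OI was higher than hemin for Scarb1 (1.11 ± 0.05), Lrp8 (0.80 ± 0.05), Elovl6 (0.72 ± 0.10), Cd5l (0.68 ± 0.10), Fasn (0.52 ± 0.05), Lpl (0.52 ± 0.05), Acly (0.49 ± 0.05) and Pltp (0.48 ± 0.07), and by smaller margins for Soat1, Acaca and Npc1. Of those named after their values were seen, 4-OI was higher for Insig1 (0.91 ± 0.06), Pla2g4a (0.76 ± 0.05), Srebf2 (0.62 ± 0.05), Scap (0.32 ± 0.07) and Insig2 (0.24 ± 0.07). It was lower for Ch25h (-2.67 ± 0.11), Lpcat2 (-1.31 ± 0.09), Mboat1 (-0.72 ± 0.18), Lpcat1 (-0.32 ± 0.06) and Lpcat4 (-0.30 ± 0.09). Rxra, Rxrb, Ncor1, Mertk, Npc2, Lrp1, Vldlr and Mboat7 did not pass.

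The genes whose pattern over the 12 libraries was most like that of a member were ranked by Pearson r of log2 CPM among the 9827 genes whose mean reached 5 CPM, as a description, since all points share the same 4 groups. For Mylip they were Ampd3 (0.997), Grina (0.996) and Gss (0.996). For Scd2 they were Slpi (0.989), Plpp3 (0.983) and Arrdc4 (0.983). For Abca1 they were Tnf (0.973), Marco (0.97) and Pilrb1 (0.969), and for Abcg1 they were Nfam1 (0.983), Txndc11 (0.975) and Itpripl1 (0.968). For Scd1, chosen for print after its values were seen, they were Kif26b (0.994), Steap2 (0.993) and Adamts2 (0.992), the last an enzyme that trims procollagen.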

How the data were processed

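RNA sequencing of 12 mouse macrophage libraries was deposited as 1 gene table per library. The submitters' processing notes name RSEM, Bowtie2, StringTie and HISAT2, without versions, and GRCm39 (mm39). Deposited expected counts, per the file headers, are estimated reads or fragments per gene; 90.62 to 92.03% were whole. Deposited FPKM values, per the file headers, are scaled by transcript length and library total; from the values, that length is 136 to 162 nt shorter than the one listed. Genes missing from a library were taken as 0.

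Expected counts were rounded, filtered with filterByExpr (12148 genes), scaled with TMM and tested in 1 fit of all 12 libraries with edgeR 4.0.16 in R 4.3.3 (quasi-likelihood F test, Benjamini-Hochberg adjustment over all genes tested, threshold 0.05); the code was tested on simulated data. CPM are TMM-scaled. SE is the size of the log2 fold change over the root of F. Library totals limit the precision, and replicate pairs varied at least 2.35 times as much as counting alone. FPKM served for levels between genes. The 10 genes and all lists were chosen with earlier results of these data known. Each list names its first 4 tested genes in the order written, plus Ch25h and Fasn; some listed genes are not reported here. Alternatives were RLE and upper-quartile factors, no filter, 10 counts in 6 libraries, DESeq2 1.42.0, limma 3.58.1 on log2 FPKM with 1 or 0.1 added, only the groups compared, a replicate block and leaving out each replicate. Promoters are RefSeq windows of GRCm38.p6, a build other than that of the counts, and no coordinates were carried between builds.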

Additional observations from a re-analysis of the deposited data

How the results depend on the processing

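Of 600 recomputed changes, over 40 pairs of gene and comparison, 578 kept their side of the threshold. Another 16 were no longer past it and 6 came past it, and the cause was not tested. No called change turned its direction. Uncalled changes with hemin crossed 0: Nr1h2 ran from -0.06 to 0.05 and Nr1h3 from -0.26 to 0.10. The number of the 10 genes called was 9 to 10 with 4-OI, 6 to 8 with hemin, 4 to 7 in the libraries labelled Irg1KO and 10 in every alternative for 4-OI against hemin. With DR4 at 3 mismatches, 2 of the 12 promoter windows had a match, beside 21.9% of all windows, against 0 at 2 mismatches or at 1. The replicate block gave 10, 7, 7 and 10 called genes in the same order, against 10, 7, 6 and 10 without it; the gene gained was Nr1h3 in the libraries labelled Irg1KO (adjusted p = 0.04402). Deviations of same-numbered libraries correlated at -0.079 to 0.067, so these libraries shared little of their spread. With 3 libraries per group, that does not settle whether they shared an origin. Abca1 passed in the libraries labelled Irg1KO only without the third vehicle library (0.13, adjusted p = 0.04748). With limma on log2(FPKM + 0.1), called genes split into 1762 higher and 4640 lower with 4-OI, 624 and 1403 with hemin and 1767 and 3528 for 4-OI against hemin. Nr1h3 had 43.7 to 81.5 expected counts in the 4-OI libraries, which limits the precision of its value there.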
